A study of Saccharomyces cerevisiae with 5 samples.

Results

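The 10 budding yeast genes described here take up zinc, store it or respond to its shortage: ZRT1, ZRT2, ZRT3, ZRC1, ZAP1, ZPS1, ADH4, IZH1, IZH2 and IZH4. They were taken by gene symbol from the platform annotation, with every probe set of each gene, which gave 14 probe sets among the 6504 that the annotation assigns to 1 gene. Those 6504 stand for 5656 genes. The group itself was chosen by its change between the deletion strain and the wild type in these same arrays. The changes of the 10 genes in that comparison, and their calls in the fit, are therefore given as a description. Their p-values are not printed, and nothing is read from their number.

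The arrays were 3 from a strain with a deletion of vts1, made in BMA64, and 2 from BMA64 itself, the wild type. BMA64 is a laboratory strain of the W303 background. Per the labels, both strains were grown in SD, a defined glucose medium, at 30 °C in steady state, and were harvested at an optical density (OD600) of 0.4. All 5 arrays also carry the same treatment label, which names VTS1 and a chemical transfection and is not explained. The titles number the deletion on all but the last deletion array, and do not say whether the numbers mean separate clones. The title of that last array does not name the deletion, and its group was taken from its source label. The labels give no zinc concentration and do not say whether arrays came from separate cultures. The errors below therefore cover the spread among 5 arrays and may be technical only. In RNA from whole cultures, fewer cells that express a gene and less RNA per cell cannot be told apart.

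Zinc is needed by many enzymes and transcription factors and is toxic in excess, and yeast controls its entry and storage tightly. Zap1 is a zinc-sensing transcription activator. When zinc in the cell is low, Zap1 binds zinc-responsive elements in promoters and raises the genes of zinc import and of release from the vacuole, its own gene included. When zinc is plentiful, Zap1 is inactive and zinc is stored in the vacuole. Vts1, the protein missing in the deletion strain, binds hairpins in mRNA and promotes mRNA decay, and the series asks which transcripts differ without it.

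The deposited values are signal intensities of the MAS5 type, 1 per probe set and array. A background level was set on each array from 28 control probe sets that have no target in yeast RNA, and it lay between 98 and 166.7. VTS1 itself had signals of 19, 17.8 and 55 on the deletion arrays, all at background, against 4952.3 and 5079.9 in the wild type. As a check of mating type, 6 a-cell markers were above background on every array. The alpha-cell gene STE3 was dim, with a mean of 190.9 in the deletion strain and 194 in the wild type. It lay at or below background on only 1 array, so it was not absent by this measure. Of the 6 a-cell markers, AGA2, an agglutinin subunit, was called lower in the deletion strain (log2 change -0.49 ± 0.13, adjusted p = 0.0393, limma). Of all probe sets tested, 3.05% were called lower. The other markers had no call. MFA1 and MFA2 had changes of 0.36 ± 0.12 and 0.30 ± 0.12, with all deletion arrays above both wild type arrays. BAR1 had -0.29 ± 0.12, with all deletion arrays below them, and at STE2 and STE6 the groups overlapped. Signals of different probe sets are not compared with each other, since probes differ in brightness for the same amount of RNA.

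All 10 genes had a lower mean log2 signal in the deletion strain at their brightest probe set. The size ran from a change of -5.40 for ZPS1 to -0.11 for IZH1, with a median of -0.99, while the median over all 6294 probe sets tested was -0.04. At 9 of the 10 genes all 3 deletion arrays lay below both wild type arrays, and at IZH1 the groups overlapped. Of all probe sets tested, 21.7% separated in that direction and 16.8% in the other. In a fit across all probe sets (limma, with adjustment over all of them), 8 of the 10 genes were called lower at an adjusted p under 0.05, which 3.05% of all probe sets were, and none was called higher at its brightest probe set. Over the 13 of the 14 probe sets that were bright enough for the fit, 10 were called lower and 1 higher. Because the group was chosen by this contrast, these calls describe it and do not test it.

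**Figure D1:**
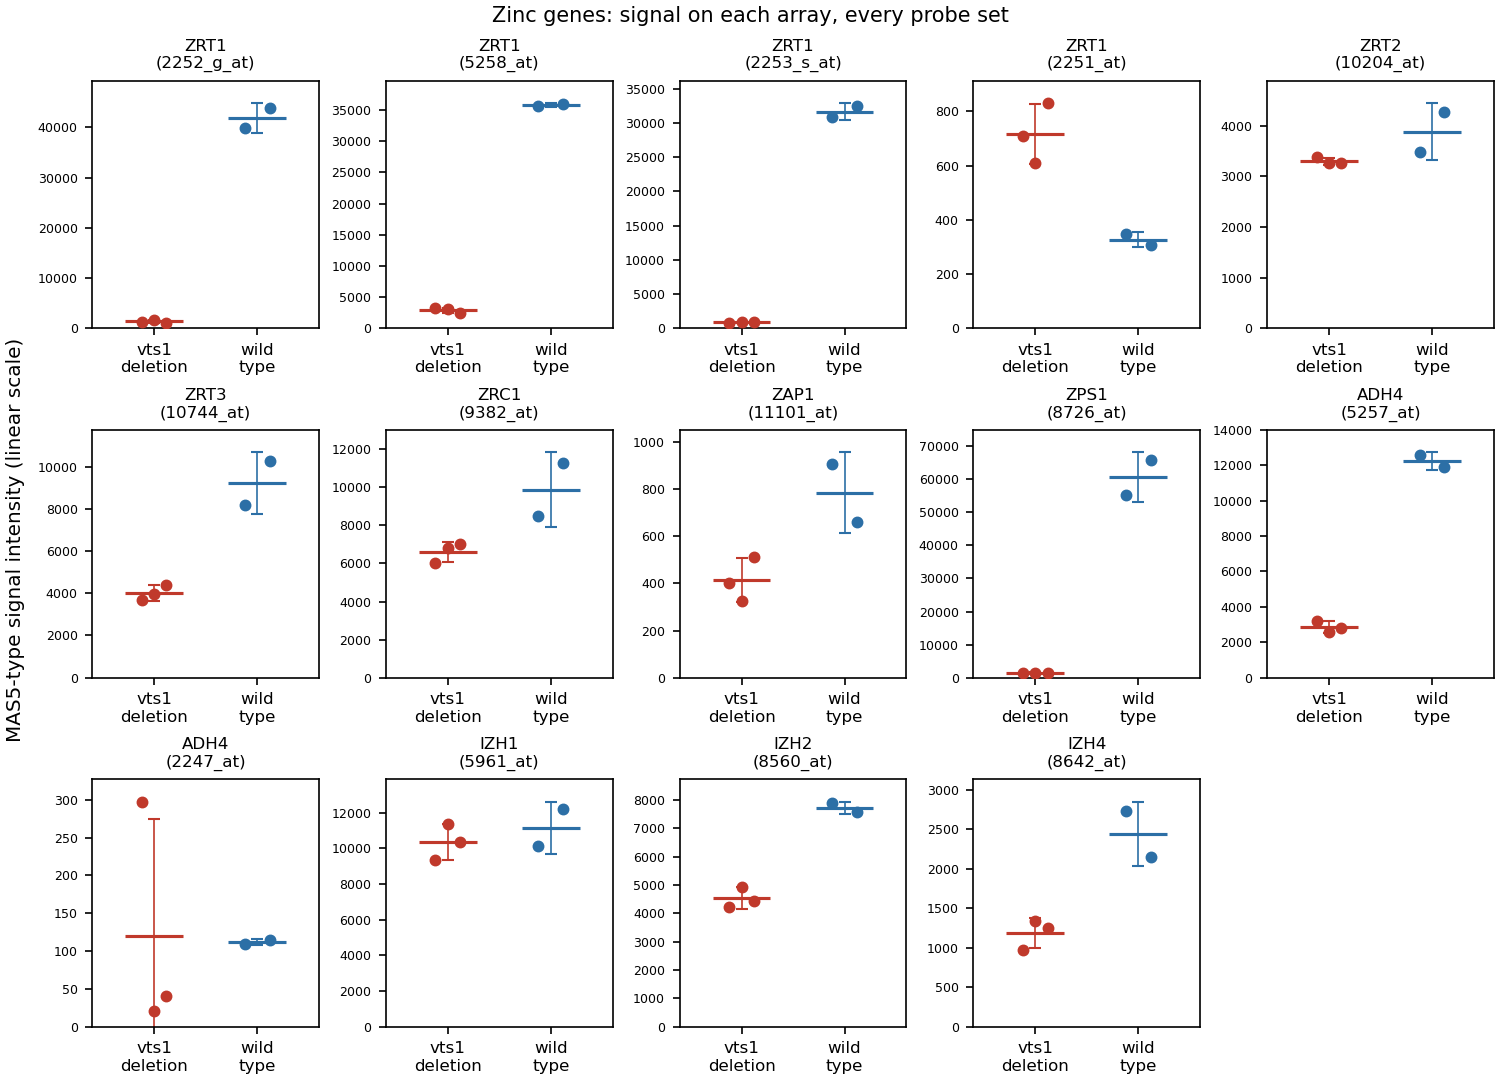
Signal intensity (linear, vertical axis from 0) of each of the 14 probe sets of the 10 zinc genes on the 3 vts1 deletion arrays (red) and the 2 wild type arrays (blue), with a panel and a scale for each probe set. Points are arrays, long lines are means and error bars are SD (the lower bar of ADH4 2247_at runs below 0 and is cut). At 3 probe sets of ZRT1 and at ZPS1 the deletion arrays lie near the foot of the panel, while ZRT1 2251_at has the deletion arrays on top.

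The genes of zinc uptake at the cell surface differed widely. ZRT1 is the high-affinity zinc transporter of the plasma membrane, made when zinc is scarce. Its brightest probe set, 2252_g_at, had signals of 1367.5, 1702.8 and 1165.7 on the deletion arrays, against 39771.9 and 43927 on the wild type arrays. Every deletion array was far below every wild type array, and the deletion mean was 3.37% of the wild type mean, a log2 change of -4.91 ± 0.16 (SE, n = 3 against 2). ZRT2, the low-affinity transporter of the same family, which serves cells with enough zinc, had signals of 3371.4, 3252.4 and 3255.9 in the deletion strain, against 3478.6 and 4276.1 in the wild type. The deletion arrays lay just under both wild type arrays, and the change was -0.23 ± 0.13 with a 95% interval of the fit from -0.52 to 0.06. ZRT2 was not called, and the interval leaves out a decrease as large as that of ZRT1.

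ZRT1 was measured by 3 further probe sets, and they did not move alike. Probe set 2253_s_at had signals of 847.7, 948.4 and 881.6 in the deletion strain, against 30796.7 and 32525.1 in the wild type (log2 change -5.15 ± 0.12). Probe set 5258_at had 3237.4, 3043.8 and 2411 in the deletion strain, against 35571.2 and 35983.7 in the wild type (log2 change -3.64 ± 0.14). Both gave the direction of the brightest probe set with no overlap of the groups, but the decrease was smaller at 5258_at, where the 95% interval from -3.94 to -3.33 does not reach the intervals of the other two.

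The dimmest probe set of ZRT1, 2251_at, went the other way. Its signals were 709.1, 610 and 830.3 in the deletion strain, against 346.9 and 307.1 in the wild type. All 3 deletion arrays were above both wild type arrays and all 5 were above background (log2 change 1.12 ± 0.22). This was the only probe set of the 14 called higher, where 4.39% of all probe sets were. The call was lost without deletion replicate 3, without wild type replicate 2, with a block on the replicate number and when dim probe sets were kept in the fit, while the change stayed between 1.01 and 1.23 over 13 alternatives. Which stretch of the locus and which strand the 4 probe sets match was not analysed here.

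The vacuole's zinc exporter and importer genes had changes of -1.20 and -0.57 on the log2 scale, with 95% intervals that did not overlap, and the difference between them was not tested. ZRT3 releases stored zinc from the vacuole into the cytosol. It had signals of 3658.6, 3954.2 and 4408.9 in the deletion strain, against 8195.7 and 10246.8 in the wild type. The groups were well apart, with the deletion mean at 43.5% of the wild type mean (log2 change -1.20 ± 0.14, 95% interval from -1.50 to -0.90). ZRC1 carries zinc into the vacuole and protects cells against zinc shock. It had signals of 6007.5, 6789.2 and 7019.5 in the deletion strain, against 8501.4 and 11270.4 in the wild type. The deletion arrays were again below both wild type arrays, by a smaller step (log2 change -0.57 ± 0.14, 95% interval from -0.88 to -0.26). The wild type arrays themselves differed by 1.33-fold at ZRC1, and the change was -0.37 without wild type replicate 2, with the call lost, and -0.77 without wild type replicate 1. The call at ZRC1 was also lost without any 1 deletion array, without a variance trend, with the replicate block and when dim probe sets were kept, which ended that of ZRT3 too.

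The activator gene ZAP1 was dim in both strains but above background on all 5 arrays. Its signals were 403.7, 324.5 and 511.2 in the deletion strain, against 906.1 and 662.5 in the wild type. The highest deletion array stayed below the lower wild type array, and the log2 change was -0.93 ± 0.25, with the largest standard error among the brightest probe sets of the 10 genes. The call at ZAP1 was lost without deletion replicate 1 or 2, without either wild type array, without a variance trend, without the filter and with the replicate block. Its change lay between -1.16 and -0.71 under all 13 alternatives.

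ZPS1 and ADH4 are target genes of Zap1 that do not encode zinc transporters. ZPS1 encodes a cell-surface protein that resembles zinc metalloproteins and is made in zinc shortage. It had signals of 1302.7, 1473.5 and 1531.9 in the deletion strain, against 55309.9 and 65978.8 in the wild type. The deletion mean was 2.37% of the wild type mean (log2 change -5.40 ± 0.13), and the 3 deletion arrays agreed within 1.18-fold. ADH4 encodes an alcohol dehydrogenase that yeast makes when zinc is low. At probe set 5257_at it had signals of 3198.8, 2566 and 2787.7 in the deletion strain, against 12582.3 and 11880.2 in the wild type, so that 23.3% of the wild type level was left (log2 change -2.11 ± 0.13). The other probe set of ADH4, 2247_at, gave 297.6, 20.9 and 40.6 in the deletion strain, against 109.1 and 114.5 in the wild type. It was too dim for the fit, lay at or below background on 3 of the 5 arrays and gives no direction.

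The IZH genes encode membrane proteins of the family of the adiponectin receptors that influence zinc homeostasis. They split into members that differed between the strains and a member that did not separate them. IZH4 had signals of 975.7, 1337.3 and 1249.3 in the deletion strain, against 2732.8 and 2151.8 in the wild type (log2 change -1.04 ± 0.18). IZH2 had 4208, 4946.5 and 4452.6 in the deletion strain, against 7878.8 and 7564.4 in the wild type (log2 change -0.77 ± 0.12). In both genes every deletion array was below every wild type array, and both calls were lost when dim probe sets were kept.

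IZH1 had signals of 9362.5, 11335.7 and 10349.5 in the deletion strain, against 10125.4 and 12189.2 in the wild type. Its groups overlapped, and its change of -0.11 ± 0.13 had a 95% interval from -0.39 to 0.18. IZH3, a further gene of the family, also had overlapping groups, with 2664.5, 3774.8 and 4069.5 in the deletion strain, against 3191.3 and 4570.4 in the wild type (adjusted p = 0.719 in the limma fit).

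Ordered by the change at the brightest probe set, the 10 genes can be laid out in 3 steps by overlap of their 95% intervals. Differences between the genes were not tested. ZPS1 and ZRT1 came first, with 95% intervals that overlapped each other, though the interval of ZRT1 at 5258_at did not reach that of ZPS1. ADH4 followed alone, with an interval from -2.39 to -1.82 that reached neither the gene before nor the gene after it. From ZRT3 (-1.50 to -0.90) the order ran through IZH4, ZAP1, IZH2, ZRC1 and ZRT2 to IZH1. In this last step each interval overlapped the next, and the order of neighbours was not settled. The interval of ZRT3 did not reach those of ZRC1, ZRT2 and IZH1. That of IZH4 did not reach those of ZRT2 and IZH1, and that of IZH2 did not reach that of IZH1. Among all 6294 changes, ranked from the lowest, ZPS1 was at rank 2, the 3 lower probe sets of ZRT1 held ranks 3, 4 and 5, and ADH4 was at rank 10. The only lower value was that of VTS1 itself, which was at background on the 3 deletion arrays, so that its change depends on the floor to which low signals were raised. It was -6.60 here and -5.33 with a higher floor, against -5.40 for ZPS1 with either. ZRC1 was at rank 274 and IZH1 at rank 2536.

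**Figure D2:**
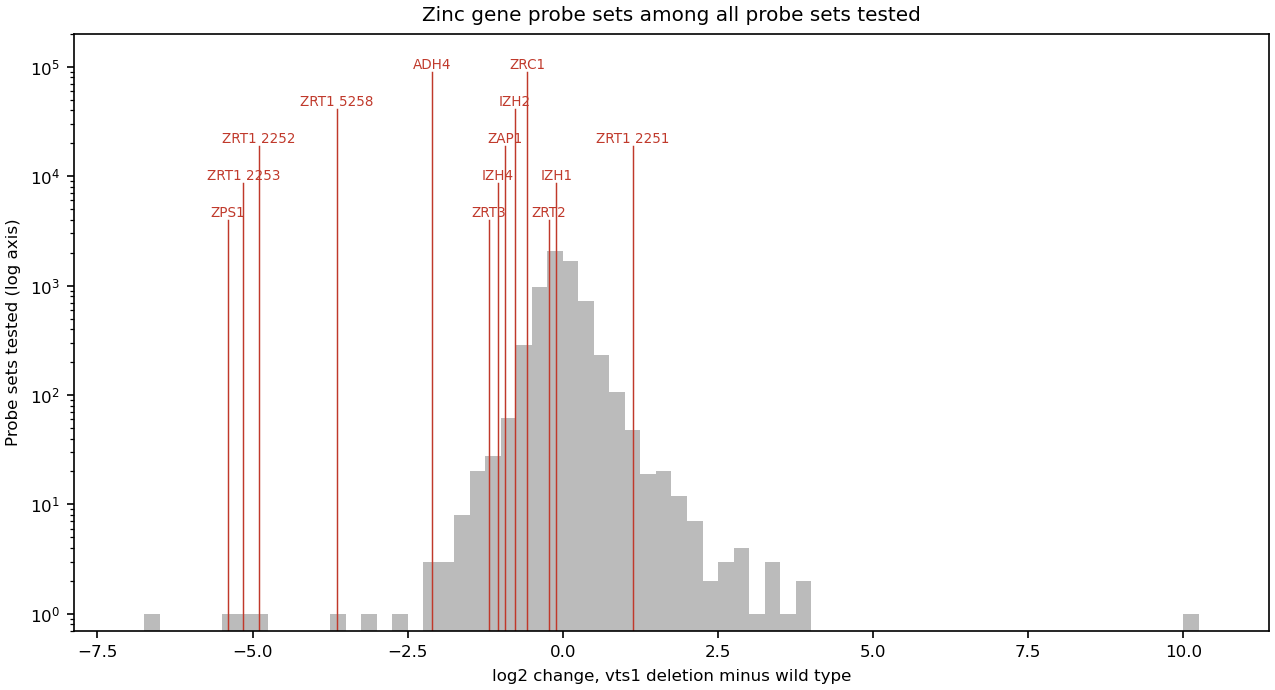
Distribution of the log2 change (vts1 deletion minus wild type) over all 6294 probe sets tested, with the count on a log axis, and red lines at the 13 tested probe sets of the 10 zinc genes (the numbers after ZRT1 tell its probe sets apart; line height only separates the names). ZPS1 and 3 probe sets of ZRT1 lie at the far left with few others, and IZH1 and ZRT2 lie in the bulk.

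The wild type arrays did not shift the 10 genes together. Wild type array 2 was brighter than array 1 at 6 of the genes, the 4 transporters ZRT1, ZRT2, ZRT3 and ZRC1 with ZPS1 and IZH1, and dimmer at ZAP1, ADH4, IZH2 and IZH4. The ratio of array 2 to array 1 ran from 0.731 at ZAP1 to 1.33 at ZRC1. Within the deletion strain the highest array was at most 1.58 times the lowest at the brightest probe sets, again at ZAP1, and 1.04 times at ZRT2.

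Beyond the 10 genes, a list of 20 further genes held transporters and genes known to be under Zap1 control, of which 19 were bright enough for the fit. Of these, 2 were called lower, 1 was called higher and 16 had no call, with a median log2 change of -0.03. Over all probe sets tested, 3.05% were called lower and 4.39% higher. FET4 and ZRG17 count as transporters and as Zap1 targets. This list was written with earlier results of these data known.

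Among the 7 further genes of zinc transport, FET4 alone was called. FET4 is a low-affinity transporter of iron that also carries zinc and is raised by Zap1. It had signals of 578.7, 523.9 and 407.3 in the deletion strain, against 1734.7 and 1573.2 in the wild type, and fell by 1.73 ± 0.20 on the log2 scale (adjusted p = 0.000155, limma; 0.0556 when dim probe sets were kept). COT1, which carries cobalt and zinc into the vacuole beside ZRC1, had 2434.5, 2570.7 and 2898.4 in the deletion strain, against 2338.2 and 1788.7 in the wild type. Its deletion arrays were all above the wild type arrays, with a change of 0.36 ± 0.15 that was not called (adjusted p = 0.202, limma). ZRG17 and MSC2, which together carry zinc into the secretory pathway, had changes of -0.41 ± 0.17 and -0.27 ± 0.16 without a call (adjusted p = 0.173 and 0.371, limma). YKE4, a zinc transporter of the endoplasmic reticulum, and PHO84, the high-affinity phosphate transporter, had overlapping groups.

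Of the 12 further Zap1-activated genes that could be tested, FET4 among them, 2 were called lower and 1 higher. NRG2, a repressor of glucose-repressed genes, had signals of 1892.7, 1780.5 and 1706 in the deletion strain, against 2652.1 and 2765.6 in the wild type (log2 change -0.60 ± 0.13, adjusted p = 0.0174, limma). PST1, a cell wall protein, had 4637.7, 4200.7 and 4924.3 in the deletion strain, against 2727.4 and 3310.7 in the wild type (log2 change 0.61 ± 0.14, adjusted p = 0.0175, limma). Neither gene's groups overlapped, but over 13 alternatives the adjusted p ran from 0.0147 to 0.0952 for NRG2 and from 0.00583 to 0.137 for PST1. TSA1, a peroxiredoxin, DPP1, a lipid phosphatase, and PIS1, phosphatidylinositol synthase, had changes of 0.00, 0.06 and 0.05, with 95% intervals from -0.26 to 0.26, from -0.22 to 0.33 and from -0.20 to 0.31. ZRG8, of unknown biochemical function, had 0.77 ± 0.27 and no call (adjusted p = 0.117, limma), with all deletion arrays above both wild type arrays.

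VEL1 was too dim for the fit, with signals of 17, 59.1 and 88 in the deletion strain, against 278 and 243.5 in the wild type. All deletion arrays were at background and both wild type arrays above it, so that VEL1 was at least 1.73-fold lower in the deletion strain, untested. ADH1 and ADH3, zinc-dependent alcohol dehydrogenases that Zap1 lowers in zinc shortage, had changes of 0.14 ± 0.13 and 0.13 ± 0.12, opposite in sign to that of ADH4, with overlapping groups and no call (adjusted p = 0.583 and 0.580, limma).

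**Figure D3:**
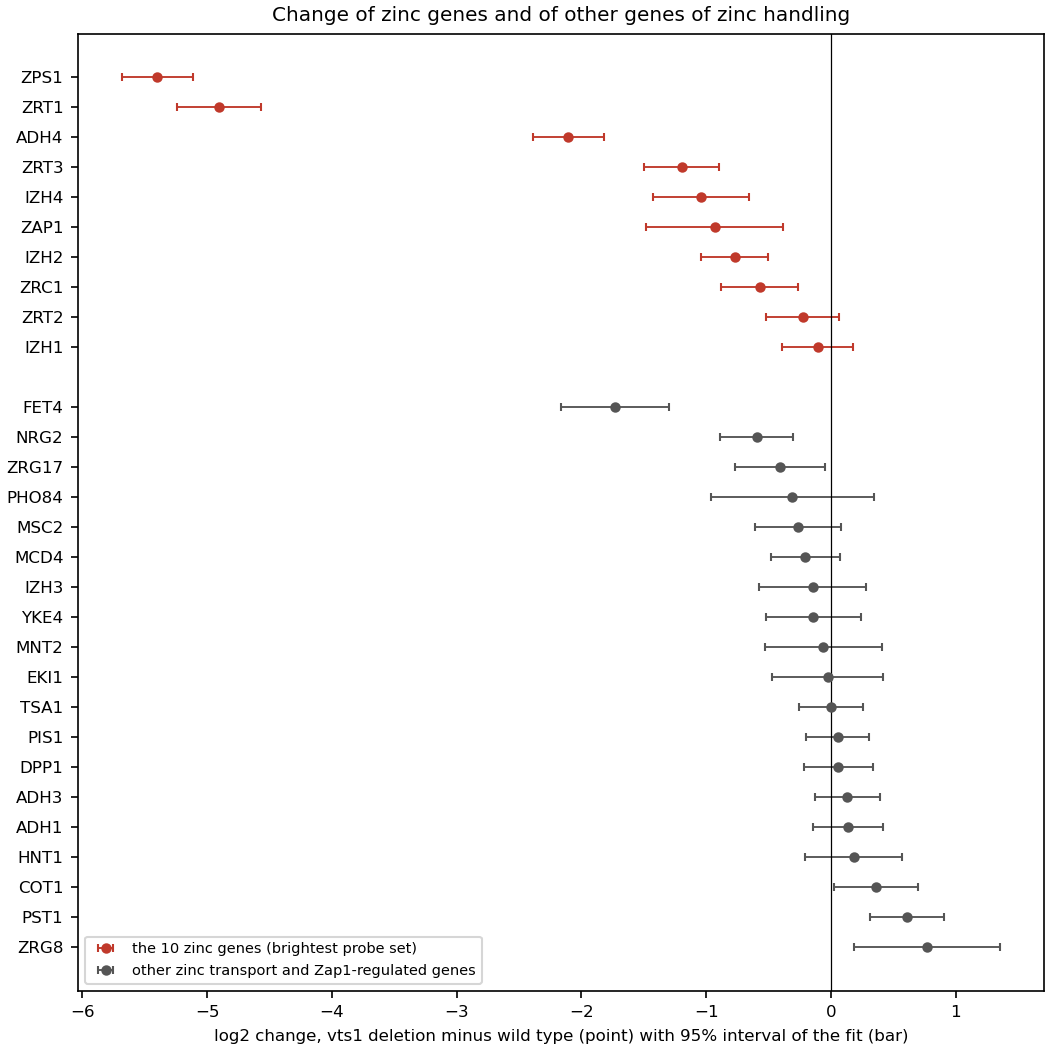
Log2 change (horizontal axis, vts1 deletion minus wild type) of the 10 zinc genes at their brightest probe set (red, above) and of 19 further genes of zinc transport or Zap1 control (grey, below). Points are estimates and bars are 95% intervals of the limma fit, not adjusted for the number of probe sets. ZPS1, ZRT1 and ADH4 lie apart on the left, and of the grey genes FET4 lies lowest, at -1.73.

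The genes next to the 10 on the chromosomes gave no calls. In the gene order of the RefSeq reference (assembly R64), 18 protein-coding genes outside the group lie directly beside them, and 12 of these were tested. By limma 0 were called lower and 0 higher, and 3 and 1 had an unadjusted p under 0.05. Of all probe sets tested, 3.05% were called lower and 4.39% higher, so 12 genes without a call are no result about the neighbours. The share of all probe sets with an unadjusted p under 0.05 was not taken. The counts of 3 and 1 therefore have no share to be set beside, and nothing is read from them. Their changes ran from -0.47 for DIP2, a ribosome assembly factor beside ZRT2, to 0.49 for FZF1, an activator of sulfite efflux beside ZRT1. These neighbours were picked by position, after the values of the 10 genes had been seen.

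ADH4 and ZRT1 are themselves neighbours, in a run on chromosome VII that reads VEL1, MNT2, ADH4, ZRT1, FZF1, HXK2. MNT2, a mannosyltransferase gene between VEL1 and ADH4, had signals of 1139.5, 957.4 and 1237.9 in the deletion strain, against 1485.3 and 898.2 in the wild type. Its groups overlapped, with a change of -0.06 ± 0.22 (adjusted p = 0.896, limma). FZF1, directly after ZRT1, had 657.7, 584 and 648.3 in the deletion strain, against 449.1 and 445.2 in the wild type, all higher in the deletion strain and without a call (adjusted p = 0.184, limma). HXK2, the main hexokinase in glucose, had 27405.1, 27225.3 and 25158.2 in the deletion strain, against 34964.1 and 36385 in the wild type. HXK2 fell by 0.42 ± 0.11 on the log2 scale (adjusted p = 0.0393, limma), a call lost under 8 of 13 alternatives, among them the omission of deletion replicate 2 or 3 or of either wild type array.

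**Figure D4:**
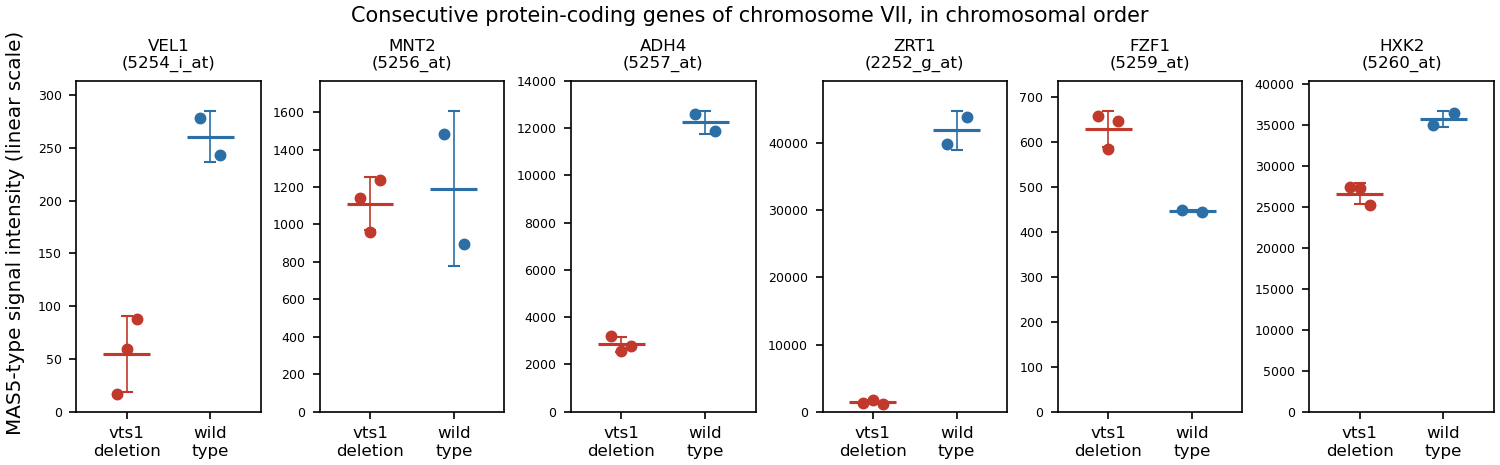
Signal intensity (linear, vertical axis from 0, a scale for each gene) of 6 consecutive protein-coding genes of chromosome VII in chromosomal order, on the 3 vts1 deletion arrays (red) and the 2 wild type arrays (blue). Points are arrays, long lines are means and error bars are SD. ADH4 and ZRT1 have deletion arrays far below the wild type arrays, while the groups overlap at MNT2 and the deletion arrays are higher at FZF1.

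Outside these lists, the single-gene probe sets with the most negative changes and no overlap between groups were those of HSP30, YOL014W, HSP26, BTN2 and TIR1. Their log2 changes ran from -2.58 ± 0.28 for HSP30, which acts at the plasma membrane in heat shock, to -1.85 ± 0.12 for TIR1, a cell wall mannoprotein (adjusted p = 9.99e-05 and 1.50e-06, limma). All 5 were smaller than the changes of ZPS1 and of the 3 lower ZRT1 probe sets, and HSP30 and YOL014W ranked just ahead of ADH4. The calls of HSP30, YOL014W, HSP26 and BTN2 were lost when dim probe sets were kept, and that of TIR1 was not.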

How the data were processed

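Biotin-labelled total RNA was measured on 5 single-colour Affymetrix arrays. Per the submitters' processing notes the tool was MAS5. Its version is not given in the sources used here, nor is its target of scaling. The deposited intensity values are linear and were already scaled: the mean without the outer 2% of probe sets at each end was 2502.47 to 2502.68 per array. They were not scaled again. Genes came from the platform annotation, by gene identifier.

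Signals were raised to a floor of 50.05 (the trimmed mean over 50) and put on the log2 scale. Those with a mean signal of at least 250.3 (the trimmed mean over 10), 6294 in all, were compared between strains with limma 3.58.1 in R 4.3.3 (eBayes with a variance trend, group as the only term, two-sided, Benjamini-Hochberg over all 6294, threshold 0.05). The fit was tested on simulated data. An "at least" fold compares mean log2 signals, with dim arrays set to background (95th percentile of 28 controls) where they lay under it. The number of arrays limits the precision.

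Named were all probe sets of the 10 genes, listed genes with a call, FET4, COT1, ADH1, ADH3, VTS1 and the 5 largest called decreases outside. Other list genes, the named a-cell markers, STE3 and the neighbours were added after their values were seen. Where such a gene had several probe sets, the one with the highest mean was used. Members and lists were chosen with earlier results of these data known. The 13 alternatives were other scalings, floors and filters, no variance trend, a replicate block and each array left out.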

Additional observations from a re-analysis of the deposited data

How the results depend on the processing

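Over 13 alternatives, 163 of 169 log2 changes of the tested zinc probe sets moved by less than the limma fit's SD for that probe set. The other 6 were those of ZRT2, ZRT3 and ZRC1 with a wild type array left out. Other floors, other filters and the missing variance trend could not move these changes, since all signals of these probe sets lay above the floors. The replicate block gave the same changes as the omission of deletion replicate 3. The only change of sign was that of the uncalled IZH1 (-0.24 to 0.03). The zinc probe sets called lower, 10 in the reported setting, were 5 without the filter on dim probe sets, where ZRT3, ZRC1, ZAP1, IZH2 and IZH4 lost their calls, and 8 without a variance trend or with the replicate block, where ZAP1 and ZRC1 did. With arrays left out in turn, ZRC1 or ZAP1 or both lost their calls. The 1 probe set called higher was 0 without the filter and with the replicate block, and 0 to 1 with arrays left out. Of the other zinc genes, the 2 called lower were 0 without the filter, 1 without a variance trend, 1 with the replicate block and 1 to 2 with arrays left out, and the 1 called higher was 0 without the filter, without a variance trend or with the replicate block, and 0 to 1 with arrays left out. Called probe sets in all, 192 lower and 276 higher, were 51 and 54 without the filter, 106 and 188 without a variance trend and 69 and 149 with the block. The cause was not tested. The replicate numbers pair nothing in the labels, and deviations of same-numbered arrays correlated at r = -0.066 and -0.074 (across probe sets). The deviations of the wild type arrays from their mean mirror each other, so these values cannot decide on a pairing. Where a wild type array was left out, the lone array was assumed to vary like the others. Dimness limits ADH4 2247_at and VEL1.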
